A study of Mus musculus with 1024 samples.

Results

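Endothelin, angiotensin, adrenomedullin and prostanoid signalling was followed through 10 genes in single cells of the mouse aorta. The genes are Edn1, Ece1, Ednra and Ednrb of the endothelin system, Ace of the renin-angiotensin system, Ptgs1, Ptgs2 and Ptgis of prostanoid synthesis, and Calcrl and Ramp2 of the adrenomedullin receptor. They were chosen by name, as makers and receptors of vasoactive peptides and prostanoids, with earlier results of these data known. They are 10 of the 24422 genes in the deposited count table. Each gene was read in every well that passed a depth filter of 20000 gene counts and 500 detected genes, and the filter kept 784 of 1024 wells.

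Endothelial cells (ECs) set the tone of the arterial wall by releasing peptides and lipids that act on the smooth muscle beneath them. Endothelin is made as a precursor, cut to its active form by endothelin-converting enzyme and sensed by 2 receptors, of which the A receptor is best known for contraction of smooth muscle. Prostacyclin, which relaxes smooth muscle and restrains platelets, is made when a cyclooxygenase and then prostacyclin synthase act on arachidonic acid. The receptor protein Calcrl binds adrenomedullin when it is paired with Ramp2 and calcitonin gene-related peptide (CGRP) when it is paired with Ramp1.

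The wells held single cells from the aortas of mice aged 3 months on a C57BL/6 background, sequenced with the Smart-seq2 protocol, which has no molecular identifiers. Wild-type (WT) mice and mice with Amotl2 deleted in ECs (KO, amotl2 ec-/ec-) were compared, and the labels give both genotypes the same strain, a floxed Amotl2 allele with an endothelial Cdh5 Cre driver and a ROSA26-EYFP reporter. In the KO mice the deletion was induced with tamoxifen through Cdh5(PAC)CreERT2, so cells without Cdh5 promoter activity, such as smooth muscle, were not targeted. After removal of Cd45+ cells, Cd31+ Cd45- cells and, as a control, Cd31- Cd45- cells were sorted, in 2 preparations that pooled 6 mice per genotype. Wells are not tied to mice, so the wells of each genotype, gate and preparation were summed and the preparation was the replicate (n = 2 per genotype and gate). In preparation 1 the WT and KO wells lay on separate plates, so genotype and plate cannot be told apart there, and in preparation 2 they shared a plate.

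The 8 sums held 926398 to 94881185 counts from 12 to 302 wells, and the 4 Cd31- sums, with 12 to 42 wells each, were the smallest. Of the 676 Cd31+ wells kept, 659 fell in clusters with endothelial markers, and of the 108 Cd31- wells 70 were smooth muscle-like, 37 were fibroblast-like and 1 was endothelial-like. The 10 endothelial markers summed to 14977 to 17744 counts per 1000000 (CPM) in the Cd31+ sums and to 22.7 to 1237 CPM in the Cd31- sums, and the highest of the Cd31- values was WT preparation 2, whose single endothelial-like well held all of that sum's Cdh5 counts. The reporter EYFP, which marks recombination, stood at 113 and 85.5 CPM in the KO Cd31+ sums, at 2.38 and 0.353 CPM in the WT Cd31+ sums and at 0 in all 4 Cd31- sums. Amotl2 itself was at 51.9 and 45.7 CPM in the KO and 59.9 and 94.0 CPM in the WT Cd31+ sums (log2 fold change -0.66 ± 0.32 SE, adjusted p = 1 from edgeR), and since the deletion takes out part of the transcript, its count does not measure the loss.

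The first comparison asked which of the 10 genes are read in ECs and which in the other cells of the wall. Edn1, Ece1, Ace, Ptgs1, Calcrl and Ramp2 were higher in the Cd31+ sums, Ednra and Ptgis were lower, Ptgs2 passed the test in neither direction, and Ednrb had counts in the Cd31+ sums alone. Of the 9 genes with counts in both gates, 6 were higher and 2 lower at an adjusted p under 0.05 in edgeR's quasi-likelihood test, against 9.79% and 9.25% of the 12729 genes tested (19.0% in either direction). Ednrb passed the filter on low counts only through the Cd31+ sums, so its fitted test is not used. The median log2 fold change of the 10 was 3.29, also with Ednrb at its lower bound, against 0.15 over all genes tested. The Cd31+ and Cd31- gates differ in cell type and in the number of wells, and in sums a lower share of cells with a transcript and less transcript per cell cannot be told apart, so the share of wells with a count is given beside each level.

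**Figure D1:**
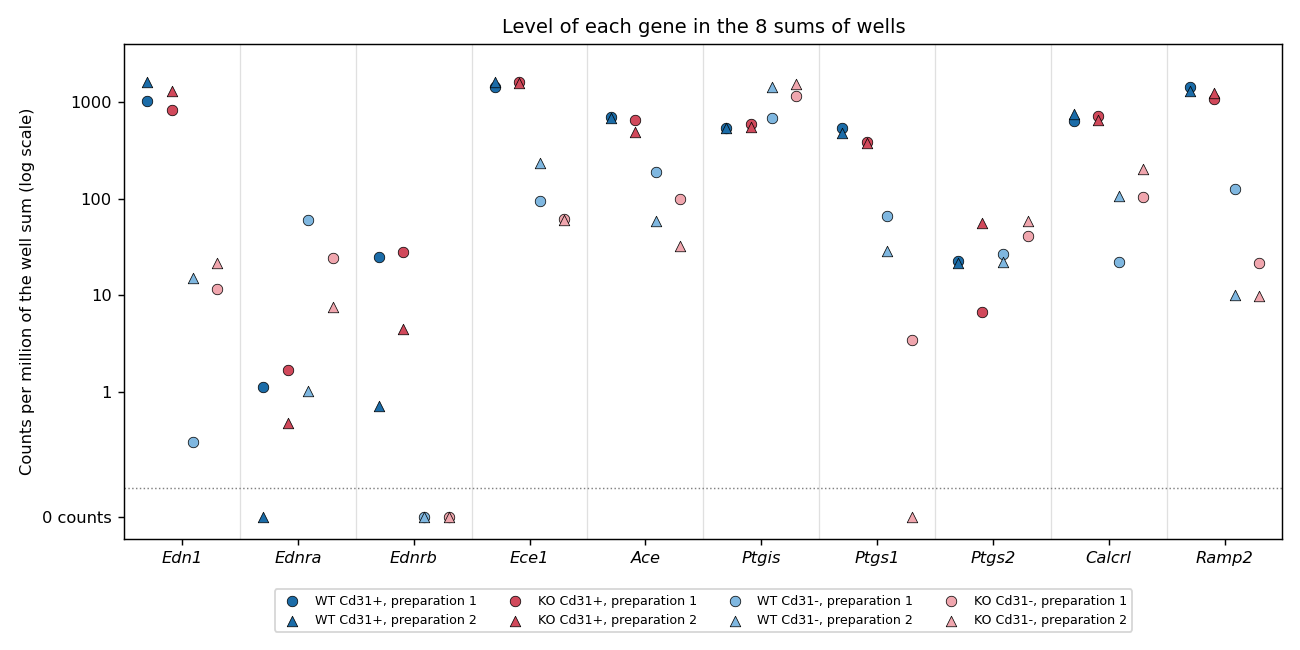
Level of each of the 10 genes in CPM (log axis, with sums at 0 counts drawn below the dotted line) in the 8 sums, coloured by genotype and gate, with circles for preparation 1 and triangles for preparation 2. For Edn1, Ece1, Ace, Ptgs1, Calcrl and Ramp2 every Cd31+ point lies above every Cd31- point, for Ptgis the order is the other way, and for Ptgs2 the points mix.

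Edn1, the gene of the endothelin-1 precursor (ENSMUSG00000021367, chr13:42301476-42307990, plus strand, GRCm38), stood at 1034 CPM in WT preparation 1, 1607 CPM in WT preparation 2, 828 CPM in KO preparation 1 and 1308 CPM in KO preparation 2 of the Cd31+ gate. In the Cd31- gate the same 4 suspensions gave 0.301, 15.2, 11.6 and 21.6 CPM. Every Cd31+ sum was thus over the highest Cd31- sum, and preparation 2 was higher than preparation 1 in both genotypes. The difference was 6.84 on the log2 scale (± 0.95 SE, edgeR adjusted p = 0.00159). It was 8.99 without WT preparation 2 of the Cd31- gate, where 1 well held all 15 counts, and 6.18 without WT preparation 1 of that gate. A count of Edn1 was found in 69.4%, 86.0%, 67.2% and 84.3% of the Cd31+ wells, and in 4.76%, 8.33%, 15% and 28.6% of the Cd31- wells in the same order. None of the 37 fibroblast-like Cd31- wells held a count (limit from 0 counts, 8.11%), and the 13 Cd31- wells that did hold one were all smooth muscle-like.

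The window from 250 bases before to 50 bases after the Edn1 start (chr13:42301226-42301525, plus strand, RefSeq promoter table, GRCm38.p6) is printed because Edn1 has the largest difference between gates of the members with counts in both. The capitals mark TTATCT, the reverse complement of the GATA-like letters AGATAA, and TGACTAA, which resembles an AP-1 site. The first begins at base 9 and the second at base 37 of the transcript, and they do not overlap.
Edn1 promoter: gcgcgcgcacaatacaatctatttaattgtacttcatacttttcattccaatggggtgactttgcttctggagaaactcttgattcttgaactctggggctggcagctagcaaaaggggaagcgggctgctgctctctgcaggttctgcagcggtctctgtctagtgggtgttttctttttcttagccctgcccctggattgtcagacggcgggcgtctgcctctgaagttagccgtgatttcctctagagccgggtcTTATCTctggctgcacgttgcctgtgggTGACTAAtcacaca
Searched on both strands, AGATAA is in 11.2% and TGACTAA in 2.35% of the 32851 windows of the same length, and among the 12 windows found for 8 of the 10 genes each is in 1, that of Edn1. Such a match is a description of the letters and was not tested for use.

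Ece1, the endothelin-converting enzyme (ENSMUSG00000057530, chr4:137862237-137965229, plus strand), varied little across the Cd31+ sums. It stood at 1448 and 1628 CPM in the WT and at 1606 and 1595 CPM in the KO Cd31+ sums, and a count was found in 99.6% of the wells of WT preparation 1 and in 100% of the wells of the other 3 sums. The Cd31- sums held 95.1 and 232 CPM (WT) and 61.0 and 59.4 CPM (KO). The higher WT value, preparation 2, rested on 1 well, the endothelial-like one, which gave 84.3% of its Ece1 counts. The gates differed by 3.87 on the log2 scale (± 0.34 SE, edgeR adjusted p = 0.000254). Every endothelial-like Cd31+ well with a count of Edn1, 476 of 659 wells, also held a count of Ece1, as did all 659.

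The receptors of endothelin were read in few wells. Ednra, the A receptor (ENSMUSG00000031616, chr8:77663031-77724464, minus strand), stood at 60.4 and 1.01 CPM in the WT and at 24.3 and 7.56 CPM in the KO Cd31- sums. In the Cd31+ sums it was at 1.13, 0, 1.68 and 0.472 CPM, with a count in 10 of 676 wells. The highest Cd31+ sum was thus above the lowest Cd31- sum, and both genotypes were higher in preparation 1 of the Cd31- gate. Ednra was lower in the Cd31+ sums, with a log2 fold change of -4.87 (± 1.33 SE, edgeR adjusted p = 0.0343). The call was lost in wells with 100000 or more counts (adjusted p = 0.0564) and in 5 of the 8 fits that left out 1 sum, with the smallest difference, -2.40 (adjusted p = 0.355), without WT preparation 1 of the Cd31- gate. The value was -8.16, still called, without WT preparation 1 of the Cd31+ gate. The other losses came without KO preparation 1 of the Cd31- gate (adjusted p = 0.0869) and without each Cd31+ sum except WT preparation 1 (adjusted p from 0.0935 to 0.129). In the Cd31- gate a count was found in 43.2% of the fibroblast-like wells (64.8 CPM) and in 17.1% of the smooth muscle-like wells (19.0 CPM).

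Ednrb, the B receptor (ENSMUSG00000022122, chr14:103814625-103844402, minus strand), had no count in any of the 108 Cd31- wells. In the Cd31+ sums it stood at 24.8 and 0.706 CPM (WT) and at 27.9 and 4.49 CPM (KO), from 34 wells in all. Both genotypes were higher in preparation 1, where 8.09% of WT wells and 3.97% of KO wells held a count. Against a floor of 3 counts over all 4 Cd31- sums, the level over all Cd31+ sums was at least 143-fold higher, and at least 67.9-fold without KO preparation 1 and at least 90.1-fold without WT preparation 1 of the Cd31- gate. Taken sum by sum, the preparation 1 levels were far over the Cd31- floors of 0.452 CPM (WT) and 0.318 CPM (KO). In preparation 2 the KO level of 4.49 CPM was near the floor of 3.24 CPM and the WT level of 0.706 CPM was under its floor of 3.04 CPM, so no difference was detectable there.

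Ace, the angiotensin-converting enzyme (ENSMUSG00000020681, chr11:105967945-105989964, plus strand), stood at 696 and 689 CPM in the WT and at 651 and 494 CPM in the KO Cd31+ sums. The Cd31- sums held 190 and 58.7 CPM (WT) and 98.6 and 32.4 CPM (KO), so the gates did not overlap, and preparation 1 was the higher in both genotypes of the Cd31- gate. The gates differed by 2.68 on the log2 scale (± 0.46 SE, edgeR adjusted p = 0.00451). Ace was also read widely outside the endothelium, with a count in 86.5% of the fibroblast-like wells (268 CPM) and 51.4% of the smooth muscle-like wells (44.3 CPM) of the Cd31- gate.

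Of the cyclooxygenases, Ptgs1, the constitutive one (ENSMUSG00000047250, chr2:36230426-36252272, plus strand), followed the endothelial gate. It stood at 541 and 474 CPM in the WT and at 384 and 373 CPM in the KO Cd31+ sums, and at 65.6 and 28.3 CPM in the WT and at 3.39 and 0 CPM in the KO Cd31- sums. Both WT sums were over both KO sums in each gate. The gates differed by 5.23 on the log2 scale (± 0.52 SE, edgeR adjusted p = 0.000382), and by 9.72 without KO preparation 1 of the Cd31- gate, which leaves a KO sum at 0 counts. In the Cd31- gate no smooth muscle-like well held a count of Ptgs1 (0 of 70, limit 4.29%), 11 of 37 fibroblast-like wells did, and the endothelial-like well gave 92.9% of the counts of WT preparation 2.

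Ptgs2, the inducible cyclooxygenase (ENSMUSG00000032487, chr1:150100031-150108227, plus strand), stood at 22.4 and 21.4 CPM in the WT and at 6.67 and 56.5 CPM in the KO Cd31+ sums. The Cd31- sums held 26.7 and 22.3 CPM (WT) and 41.2 and 58.3 CPM (KO), so the gates overlapped (log2 difference -0.50 ± 0.61 SE, edgeR adjusted p = 0.638). In 4 of the 8 sums 1 well gave over 50% of the counts, at 51.5% in WT preparation 1 and 87.1% in KO preparation 2 of the Cd31+ gate and at 95.5% in WT preparation 2 and 53.7% in KO preparation 2 of the Cd31- gate. A count was found in 8.94% to 22.0% of the Cd31+ wells and in 16.7% to 21.4% of the Cd31- wells. Within the Cd31- gate, 35.1% of the fibroblast-like wells (76.9 CPM) and 10% of the smooth muscle-like wells (12.4 CPM) held one. Ptgs2 is an immediate-early gene that tissue dissociation can induce. A list of 10 other such genes, Fos and Jun among them, summed to 2740 to 6332 CPM in the Cd31+ and to 4122 to 11965 CPM in the Cd31- sums, with all 10 detected in every sum, and its part in the Ptgs2 values was not tested.

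The Ptgs2 window (chr1:150099781-150100080, plus strand, same table) is printed as that of the inducible gene of the pair, with ACGTCA, the core of a cyclic AMP response element, and CACGTG, an E-box, in capitals. They share the letters CA and lie at bases 13 and 17 of the transcript.
Ptgs2 promoter: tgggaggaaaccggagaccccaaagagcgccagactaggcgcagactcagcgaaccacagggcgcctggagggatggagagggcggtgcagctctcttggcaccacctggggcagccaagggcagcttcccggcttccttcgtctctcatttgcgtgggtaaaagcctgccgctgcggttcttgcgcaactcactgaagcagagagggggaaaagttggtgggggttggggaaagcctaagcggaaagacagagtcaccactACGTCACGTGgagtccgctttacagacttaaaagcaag
On both strands ACGTCA is in 7.51% and CACGTG in 7.15% of all windows. Among the windows of the 10 genes ACGTCA is also in that of Ednrb and CACGTG in one of Ece1.

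Ptgis, prostacyclin synthase (ENSMUSG00000017969, chr2:167191805-167240604, minus strand), was the only enzyme of the 10 that passed the test as lower in the Cd31+ gate. It stood at 534 and 542 CPM in the WT and at 589 and 549 CPM in the KO Cd31+ sums, and at 681 and 1443 CPM in the WT and 1152 and 1529 CPM in the KO Cd31- sums. Every Cd31- sum was over every Cd31+ sum, although a count was found in 88.9% to 98.0% of the Cd31+ wells and in 90.5% to 100% of the Cd31- wells. Ptgis was lower in the Cd31+ sums, with a log2 fold change of -1.23 (± 0.30 SE, edgeR adjusted p = 0.0212). All 70 smooth muscle-like Cd31- wells held a count (1458 CPM), against 83.8% of the fibroblast-like wells (234 CPM). The lowest Cd31- sum, WT preparation 1, was the one with 61.9% fibroblast-like wells, against 7.14% to 22.5% in the others. With only the smooth muscle-like wells in the Cd31- sums, a choice made after seeing the data, the log2 difference was -1.56 (edgeR adjusted p = 0.000172). The adjusted p ran from 0.0625 to 0.0878 without KO preparation 2 of the Cd31- gate and without each of the 4 Cd31+ sums, which ended the call in those 5 fits.

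**Figure D2:**
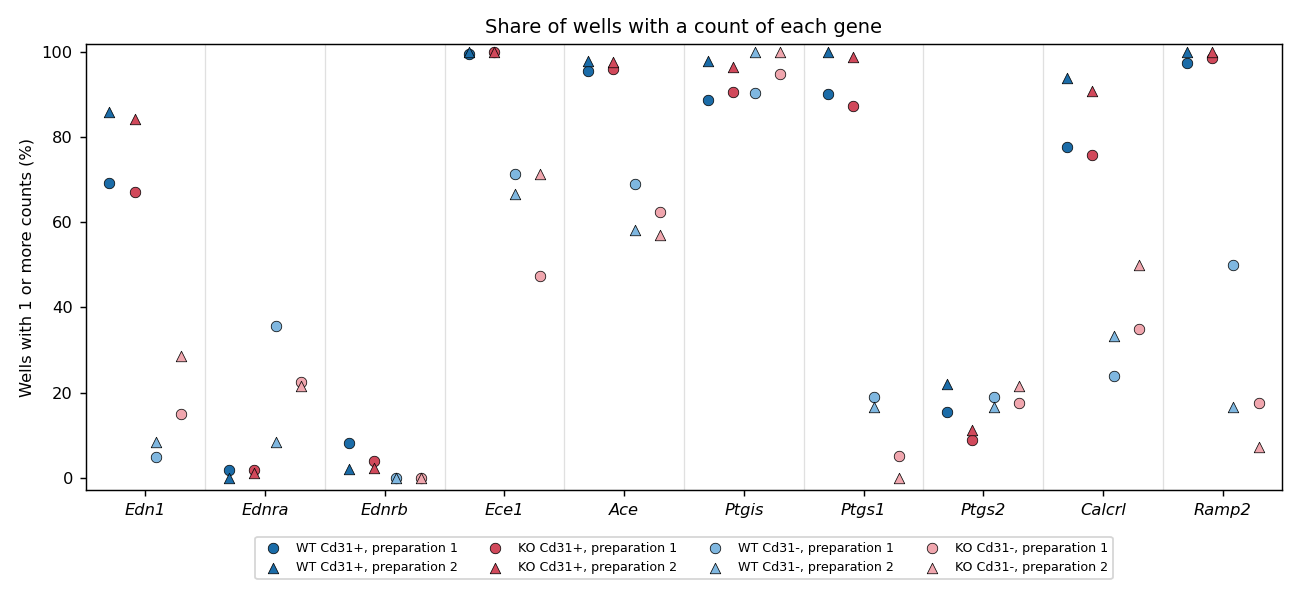
Share of wells with 1 or more counts of each gene in each of the 8 sums, in percent, with colours and symbols for genotype, gate and preparation. Ece1, Ace, Ptgs1 and Ramp2 are found in most Cd31+ wells, Ptgis in nearly all wells of both gates, and Ednra, Ednrb and Ptgs2 in a minority of either.

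Calcrl and Ramp2 together form the adrenomedullin receptor. Calcrl (ENSMUSG00000059588, chr2:84330626-84425411, minus strand) stood at 635 and 756 CPM in the WT and at 714 and 648 CPM in the KO Cd31+ sums. In the Cd31- sums it was at 22.3 and 105 CPM (WT) and at 103 and 204 CPM (KO), so both KO sums were over the WT sum of the same preparation, and no Cd31- sum reached a Cd31+ sum. In these Cd31- sums 1 well gave 31.1% and 76.0% (WT) and 47.5% and 32.8% (KO) of the counts. A count was found in 77.9% and 94.0% (WT) and 75.8% and 91.0% (KO) of the Cd31+ wells. In the Cd31- wells the shares were 23.8% and 33.3% (WT) and 35% and 50% (KO). The gates differed by 2.7 on the log2 scale (± 0.49 SE, edgeR adjusted p = 0.00589), and by 3.45 without WT preparation 2 of the Cd31- gate.

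Ramp2 (ENSMUSG00000001240, chr11:101246028-101259546, plus strand) stood at 1423 and 1299 CPM in the WT and at 1077 and 1235 CPM in the KO Cd31+ sums. The Cd31- sums held 127 and 10.1 CPM (WT) and 21.6 and 9.72 CPM (KO). The gates did not overlap and differed by 5.10 on the log2 scale (± 0.70 SE, edgeR adjusted p = 0.00152), and by 6.49 without WT preparation 1 of the Cd31- gate. In the annotation 33.4% of the exonic bases of Ramp2 are also exonic in its neighbour Vps25 on the same strand, so its level is uncertain to that degree. For the other 9 genes the share of exonic bases in common with another gene was 0% to 6.08%.

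The partners read beside Calcrl differed between the cell types. Of the 659 endothelial-like Cd31+ wells, 80.0% held counts of both Calcrl and Ramp2 (95% Clopper-Pearson interval 76.7% to 83.0%), and 527 of the 528 with Calcrl also held Ramp2. Ramp2 was in 654 of the 659 wells, with or without Calcrl, and a pairing beyond that share was not tested. Of the 70 smooth muscle-like Cd31- wells, 31 held Calcrl and none held Ramp2 (limit 4.29%), while 69 held Ramp1 and all 31 with Calcrl were among them. The fibroblast-like Cd31- wells showed yet another pattern, with Ramp2 in 30 of 37 wells, Calcrl in 3 and Ramp1 in 6. Adm, the gene of the ligand adrenomedullin, was at 234 CPM in the fibroblast-like and at 28.8 CPM in the smooth muscle-like Cd31- wells and at 1.16 CPM in the endothelial-like Cd31+ wells. The 15 smooth muscle-like wells of the Cd31+ gate differed from those of the Cd31- gate, with Ramp1 in 14, Calcrl in 12, Ramp2 in 10 and both Calcrl and Ramp2 in 9 (60%). They also held the endothelial genes Slco2a1 in 9 and Nos3 in 5 wells, and the part of endothelial RNA in these values was not tested. These intervals and limits cover counting error over wells only, and the wells come from 4 suspensions.

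**Figure D3:**
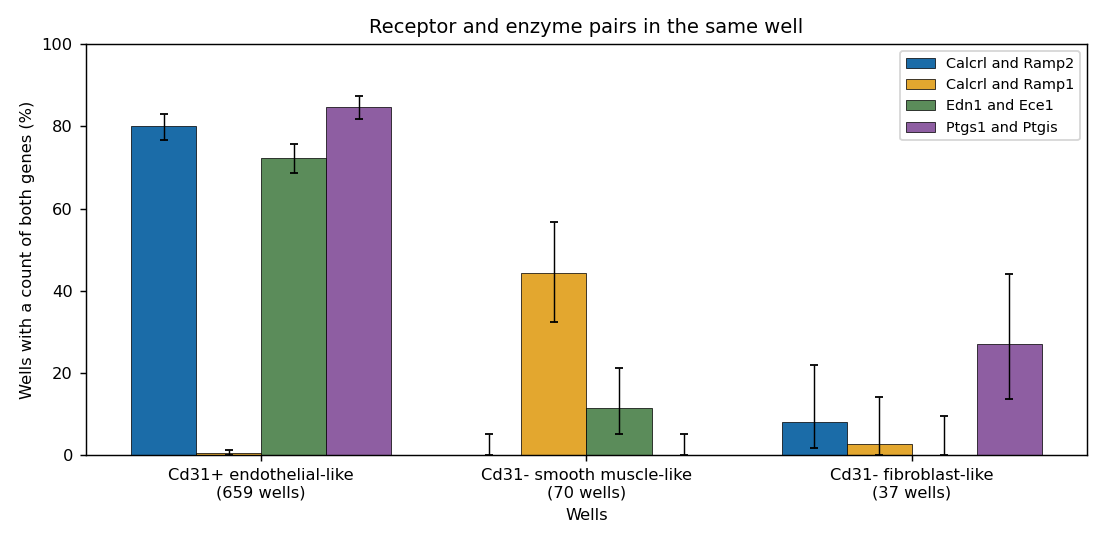
Share of wells, in percent, with a count of both genes of a pair in the endothelial-like Cd31+ wells and in the smooth muscle-like and fibroblast-like Cd31- wells, with 95% Clopper-Pearson intervals over wells. Calcrl with Ramp2 is at 80.0% in the endothelial-like and at 0% in the smooth muscle-like wells, and Calcrl with Ramp1 is at 0.455% and 44.3%.

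The prostacyclin pathway showed a similar division. Both Ptgs1 and Ptgis had a count in 84.7% of the endothelial-like Cd31+ wells, in 27% of the fibroblast-like wells and in none of the smooth muscle-like wells of the Cd31- gate, although all of the latter held Ptgis. Singly, Ptgs1 was in 91.7% and Ptgis in 91.4% of the endothelial-like Cd31+ wells, and a link beyond these shares was not tested. Of the 15 smooth muscle-like wells of the Cd31+ gate, 9 (60%) held both. Ptgs2 was found with Ptgis in 10% of the smooth muscle-like wells of the Cd31- gate and in 13.3% of those of the Cd31+ gate. The median depth was 183911 counts in KO and 129761 in WT Cd31+ wells, and 155987 in KO and 105976 in WT Cd31- wells. Thinned to 20000 counts per well, 6 of the 10 genes kept a higher share of Cd31+ than of Cd31- wells in all 4 suspensions, against 7 without thinning. The share of all genes for which this holds was not counted.

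Per kilobase of exon, the order of levels in the Cd31+ gate was Edn1 at 558 ± 158 CPM per kb (SD, n = 4 sums), Ramp2 at 381 ± 43.6, Ece1 at 296 ± 15.4, Ptgis at 215 ± 9.54, Calcrl at 141 ± 11.7, Ace at 120 ± 17.9 and Ptgs1 at 114 ± 20.4 CPM per kb. Ptgs2 at 5.84 ± 4.61, Ednrb at 3.39 ± 3.25 and Ednra at 0.149 ± 0.134 CPM per kb came last. The ranges of Edn1 and Ramp2, of Calcrl, Ace and Ptgs1, of Ptgs2 and Ednrb, and of Ednrb and Ednra overlapped between neighbours, so their order within these groups is not set. In the Cd31- gate Ptgis led at 468 ± 149 CPM per kb. Calcrl at 22.3 ± 15.2, Ece1 at 21.1 ± 15.4 and Ace at 17.9 ± 13.0 CPM per kb came next, with overlapping ranges, so their order is not set.

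Of 55 other genes of the same pathways, 47 had a count and 31 passed the filter on low counts. In the Cd31+ sums 5 were higher and 14 lower (edgeR, adjusted p under 0.05), against 9.79% and 9.25% of the 12729 genes tested. Of these, Nos1 and Ramp3 among the higher and Ptges among the lower had no count in 1 gate and passed the filter only through the other, which leaves 3 higher and 13 lower of 27 with counts in both. The median log2 fold change of the 31 was -2.84, against 0.15 over all genes tested. Calcb, Ren1, Agtr2, Kng1, Ptgds, Ptgdr and Nppb had no count in any of the 8 sums, so renin (Ren1) and kininogen (Kng1), among others, were not detectable at this depth.

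Among the adrenomedullin and CGRP genes, Ramp1 was lower in the Cd31+ sums, with a log2 fold change of -6.31 (± 0.75 SE, edgeR adjusted p = 0.000736). Adm was lower too, at -6.30 (± 0.80 SE, edgeR adjusted p = 0.00106). Ramp1 stood at 241 to 536 CPM in the Cd31- and at 1.18 to 9.73 CPM in the Cd31+ sums. Among the prostanoid genes, the prostaglandin E receptor Ptger4 was at 106 to 149 CPM in the Cd31+ and at 0 to 1.66 CPM in the Cd31- sums (edgeR adjusted p = 0.000223). The prostaglandin transporter Slco2a1 was at 301 to 438 CPM in the Cd31+ sums, at 0 in both KO and at 2.11 and 30.4 CPM in the WT Cd31- sums (edgeR adjusted p = 0.00124), and the endothelial-like well gave all counts of the last. The thromboxane receptor Tbxa2r was lower in the Cd31+ sums, with a log2 fold change of -4.74 (± 0.85 SE, edgeR adjusted p = 0.00573). Ptges, prostaglandin E synthase, had no count in the Cd31+ wells and was at 23.5 and 4.98 CPM in preparation 1 of the WT and KO Cd31- sums, from fibroblast-like wells only.

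The nitric oxide genes also split by gate. Nos3, the endothelial synthase, was at 144 to 247 CPM in the Cd31+ sums and at 0 in 3 of the 4 Cd31- sums (edgeR adjusted p = 0.0203), and all Cd31- counts came from the endothelial-like well. Nos1 was at 2.01 to 21.0 CPM in the Cd31+ sums and had no Cd31- count. The nitric oxide receptor subunits Gucy1a3 and Gucy1b3 were lower in the Cd31+ sums, with log2 fold changes of -4.41 and -4.54 (SE 0.51 and 0.64, edgeR adjusted p = 0.000657 and 0.00177). Downstream of them, the phosphodiesterase Pde5a was lower at -5.31 (± 0.83 SE, edgeR adjusted p = 0.00296) and the kinase Prkg1 at -2.84 (± 0.65 SE, edgeR adjusted p = 0.0165). The next 3 genes were read at low levels. The aminopeptidase Enpep was at 2.16 to 90.1 CPM in the Cd31- and at 0 to 2.30 CPM in the Cd31+ sums (edgeR adjusted p = 0.018). The angiotensin receptor Agtr1a was at 1.01 to 11.02 CPM in the Cd31- sums and had a count in 1 of 4 Cd31+ sums (edgeR adjusted p = 0.0331). The kinin receptor Bdkrb1 had counts in 2 of 4 Cd31- and 1 of 4 Cd31+ sums (edgeR adjusted p = 0.0237).

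Of these pathway genes, Ptger4, Gucy1a3, Ramp1, Adm, Slco2a1, Gucy1b3, Pde5a and Tbxa2r kept their call under every alternative run. Without KO preparation 1 of the Cd31+ gate the log2 fold changes were -7.37 for Ramp1, -8.23 for Adm, -5.44 for Gucy1b3 and -6.18 for Pde5a, and without WT preparation 1 of that gate they were -6.91 for Ramp1, -6.67 for Pde5a and -6.92 for Tbxa2r. Bdkrb1 lost its call with a block of preparation (edgeR adjusted p = 0.0754) and Agtr1a with a block of genotype and preparation (0.0561), and both lost it with each of 6 sums left out in turn. Prkg1 lost it without KO preparation 1 (0.0615) or 2 (0.0547) of the Cd31+ gate, Enpep without KO preparation 1 of the Cd31- (0.198) or WT preparation 2 of the Cd31+ gate (0.0661), and Nos3 without KO preparation 1 of the Cd31- gate (0.0911). The number called among the 55 genes was 9 without KO preparation 1 of the Cd31- gate, 10 and 11 without KO preparation 1 and 2 and 12 without either WT sum of the Cd31+ gate. Over all genes the calls fell too, from 2423 to 1919 without that Cd31- sum. They fell to 1399 and 1355 without KO preparation 1 and 2, and to 1496 and 1435 without WT preparation 1 and 2, of the Cd31+ gate.

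The wells were clustered without the 10 genes and without the other pathway genes among the variable genes, so the levels by cluster are a description that the clustering did not use directly. Of 7 clusters, 5 were endothelial-like. Clusters 0 (251 wells, led by Aldh3a1, Frzb and Thbs1) and 1 (197 wells, led by Nt5e and Gkn3) held most KO wells, and cluster 2 (156 wells, led by Cd74 and H2-Aa of antigen presentation) held 155 WT wells of preparation 1, so cluster 2, genotype and plate cannot be told apart. Calcrl stood at 1062 CPM in cluster 0, where it was itself among the 10 leading genes, and at 186 CPM in cluster 1, while Edn1 (929 and 1113 CPM), Ece1 (1804 and 1401 CPM), Ace (748 and 602 CPM) and Ptgis (617 and 541 CPM) differed by less than 1.5-fold. Ramp2 was at 1380 and 863 CPM and Ptgs2 at 3.14 and 23.2 CPM in clusters 0 and 1. These levels are over all wells of a cluster, and in WT preparation 1 alone Edn1 was at 907 and 1475 CPM. At a clustering resolution of 0.8, cluster 0 split into 190 wells with Edn1 at 522 CPM and 61 wells at 1780 CPM. The Calcrl difference was seen in all 4 suspensions, at 895 to 1295 CPM in cluster 0 and at 123 to 204 CPM in cluster 1.

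Cluster 5 (33 wells, led by Lrg1, Aqp1 and Cd36) departed from clusters 0 to 2 in several of these genes. Calcrl reached 2300 CPM and Ptgs1 892 CPM in it, Ednrb stood at 339 CPM with a count in 60.6% of wells, and Ptgis was at 40.5 CPM and Ace at 130 CPM. Of the Ednrb counts 43.4% came from 1 well. In KO preparation 2, however, Calcrl was lower in cluster 5 (868 CPM) than in cluster 0 (1295 CPM), and Ptgs1 was at 467 and 446 CPM. Edn1, at 377 CPM over cluster 5, was at 646 CPM in its WT preparation 1 wells. In its KO wells Edn1 was at 80.5 CPM (preparation 1) and 103 CPM (preparation 2), with 99.6% and 88.2% of the counts from 1 well each. In WT preparation 1 (19 wells), KO preparation 1 (11 wells) and KO preparation 2 (3 wells) of cluster 5, Ednrb was at 176, 535 and 231 CPM and Ptgis at 76.5, 0.694 and 6.07 CPM, so each sum had Ednrb above and Ptgis below its level in clusters 0 to 2. In the same order, 1 well gave 29.9%, 61.1% and 97.4% of the Ednrb counts. The 2 KO sums held 2 counts and 1 count of Ptgis.

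Cluster 6 (23 wells, led by Slc6a6, Ssu2 and Hapln1) was below clusters 0 to 2 in Ace (141 CPM), Ptgs1 (21.4 CPM), Calcrl (31.4 CPM), Ece1 (718 CPM), Ramp2 (410 CPM) and Ptgis (276 CPM). Edn1 was at 1353 CPM over the cluster, with a count in 12 of 12 WT wells of preparation 1 (2512 CPM) and in 4 of 9 KO wells of preparation 1 (780 CPM, 92.8% of it from 1 well). Ednrb was at 224 CPM in it, from 5 of 23 wells, of which 1 gave 47.8% of the counts. Clusters 5 and 6 together held 25 of the 34 wells with a count of Ednrb. No test was made between clusters, since the wells were grouped on the same cells' genes.

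**Figure D4:**
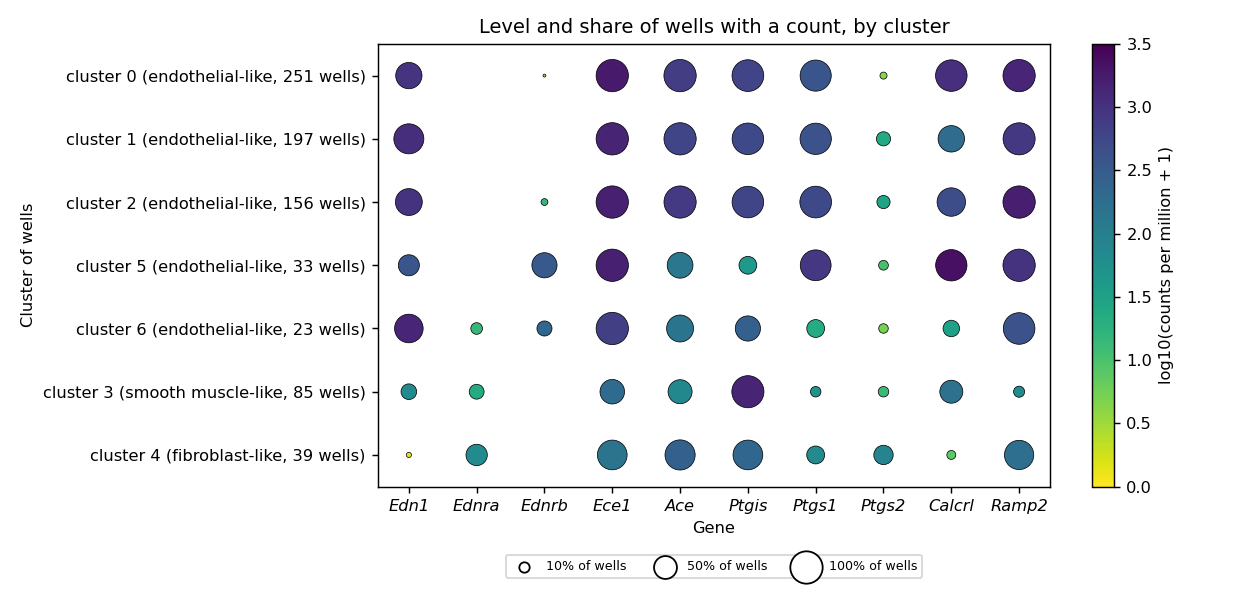
Each gene in each cluster of wells, with colour for log10(CPM + 1) over the cluster's summed counts and dot size for the share of wells with a count (no dot at 0%). Calcrl and Ednrb are highest in cluster 5, Ptgis in the smooth muscle-like cluster 3, and Ednra and Ptgs2 in the fibroblast-like cluster 4.

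The second comparison asked whether these genes changed with endothelial deletion of Amotl2. In the Cd31+ sums none of the 10 genes passed the test between KO and WT (0 of 10 in edgeR, adjusted p = 1 for each, against 0% of 12702 genes tested). At an unadjusted p under 0.05 edgeR counted 0 of the 10 and 468 of all genes, and DESeq2 called 0 of the 10 and 37 of all genes at an adjusted p under 0.05. The reporter EYFP, with a log2 fold change of 6.00, did not pass either (adjusted p = 0.0596), so the test missing its threshold does not show that a gene was alike in both genotypes. On the log2 scale KO minus WT was -0.41 ± 0.25 SE for Ptgs1, -0.28 ± 0.35 for Edn1, -0.28 ± 0.25 for Ace, -0.22 ± 0.26 for Ramp2, -0.03 ± 0.25 for Calcrl, 0.07 ± 0.25 for Ece1 and 0.09 ± 0.24 for Ptgis. The interval of 2 SE around them runs from -0.98 to 0.57, and differences inside these intervals remain possible.

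Ptgs1, Ace and Ramp2 had both KO sums under both WT sums. Within each preparation Edn1 was lower in the KO sum as well, and Ednra, Ednrb and Ptgis were higher. For Ptgs1 the means were 379 ± 8.18 against 508 ± 47.0 CPM (SD, n = 2 each). The fitted difference was 1.33-fold, with an unadjusted edgeR p of 0.127. For the 3 sparse genes the errors were wide, at 0.60 ± 0.79 SE for Ptgs2, 0.87 ± 1.79 for Ednra and 0.30 ± 1.18 for Ednrb on the log2 scale. For Ednrb, leaving out WT preparation 1 gave 4.46 (edgeR adjusted p = 0.000206), a call that rested on 1 WT well with 8 counts, and leaving out KO preparation 1 gave -1.39. Of the 55 other pathway genes 25 were tested and 0 called by edgeR (1, Apln, at an unadjusted p under 0.05) or DESeq2.

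**Figure D5:**
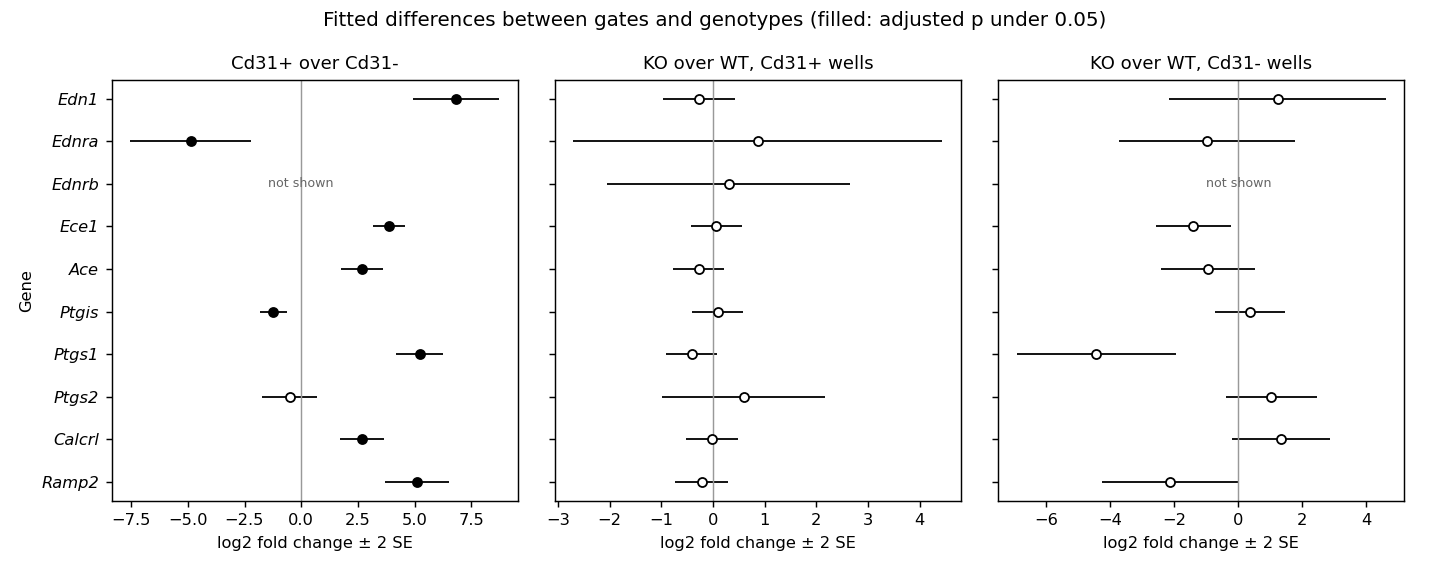
Log2 fold change with 2 SE to either side for each gene, from left to right between gates, between KO and WT in the Cd31+ sums and between KO and WT in the Cd31- sums (edgeR, filled at an adjusted p under 0.05). The 8 genes filled on the left are open in both genotype panels. Ednrb is left out where its Cd31- counts are 0.

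In the Cd31- sums, where the Cre driver should not act, none of the 9 genes tested passed (0 of 10544 genes, 0%). At an unadjusted p under 0.05 edgeR counted 2 of the 9, Ptgs1 at -4.44 ± 1.24 SE and Ece1 at -1.41 ± 0.59 SE on the log2 scale, and 275 of all genes. DESeq2 called 0 of the 9 and 5 of all genes. The cell types also differed between the Cd31- sums, and their part in these values was not tested. In preparation 2, 1 endothelial-like well gave 84.3% of the Ece1 and 92.9% of the Ptgs1 counts of the WT sum. Fibroblast-like wells were 61.9% of WT preparation 1 against 22.5% of KO preparation 1, and 8.33% against 7.14% in preparation 2, and the fibroblast markers summed to 42263 and 16802 CPM in preparation 1. Within the fibroblast-like wells of preparation 1, Ptgs1 was at 105 CPM in 26 WT wells and at 14.7 CPM in 9 KO wells, and Ramp2 at 203 and 93.4 CPM. For Ptgs1, 1 well gave 51.3% of the WT and 1 well 96.9% of the KO counts, and 30.8% and 22.2% of the wells held a count. Within the smooth muscle-like wells Ptgs1 and Ramp2 had no count in either genotype, and Ece1 differed by 0.16 on the log2 scale (edgeR adjusted p = 1) in place of -1.41.

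Leaving out WT preparation 2 of the Cd31- gate, which holds the endothelial-like well, gave Calcrl at 2.81, Ptgs1 at -4.87 and Ramp2 at -2.95 on the log2 scale. That fit has a lone WT sum, assumed to vary as the KO sums do. Of the 55 other pathway genes 23 were tested and 0 called by edgeR (1, Pla2g4a, at an unadjusted p under 0.05) or DESeq2.

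Whether the genotype difference itself depended on the gate was tested as an interaction over all 8 sums. None of the 10 genes passed in edgeR (0 of 12729 genes, 0%), with 2 of the 10 and 657 of all genes at an unadjusted p under 0.05. These were Ptgs1, at 3.84 ± 0.93 SE on the log2 scale (adjusted p = 0.955), and Ece1, at 1.47 ± 0.62 SE (adjusted p = 0.955). DESeq2 called 46 of all genes and, among the 10, Ptgs1 (3.85, adjusted p = 0.035). Without the filter on low counts edgeR called Ptgs1 as well (3.83) and 163 of all genes. With only smooth muscle-like wells in the Cd31- sums, chosen after seeing the data, the edgeR value of Ptgs1 was -0.42, set by sums at 0 counts, and that of Ece1 was -0.074.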

How the data were processed

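Single cells from aortas were sequenced with Smart-seq2. The authors aligned reads to GRCm38 with STAR 2.7.7a, removed duplicates with Picard 2.22.0 and used HTSeq 0.9.1 for gene counts, as the submitters' processing notes list. The strand setting and the annotation release are not given in the sources used here. The deposited values are whole-number counts per gene and well without normalization. Gene lines held 51.9% of all counts. Neither the 92 spike-in lines (1.25%) nor the 5 summary lines (46.9%) entered library sizes or tests.

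Wells with at least 20000 gene counts and 500 genes were kept, as in the study. No doublet caller was run, since a singlet gate was used in sorting. Kept wells held 20120 to 2000302 counts (median 152318). Wells of each genotype, gate and preparation were summed, and levels are counts per 1000000 (CPM) of that sum, per kilobase where genes are compared. Nothing in the labels ties wells to mice, so p-values measure the spread between preparations. Between gates and genotypes, edgeR 4.0.16 (R 4.3.3) quasi-likelihood tests with TMM scaling, its filter on low counts and Benjamini-Hochberg adjustment over all genes tested were used. Alternatives were RLE scaling, no filter, DESeq2 1.42.0, a preparation block, each sum left out, deeper wells, thinned wells and wells by cluster. Clustering used Seurat 5.3.0 (2000 variable genes, 30 dimensions, resolution 0.5). A cluster was named from marker lists. Shares have 95% Clopper-Pearson intervals, and a count of 0 was read as up to 3 counts. The tests were tried on simulated data with known changes before use. With a simulated log2 difference of 1, edgeR recovered 0.5% between gates and 4.5% between genotypes in the Cd31+ sums. It recovered 0% between genotypes in the Cd31- sums and 0% in the interaction. With a simulated difference of 3 the recovered shares were 80.5%, 86.5%, 25.5% and 22.5%, in the same order. Differences of 1 were thus mostly missed, as were those of 3 in the Cd31- sums and in the interaction.

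The 10 genes and all lists were chosen with earlier results of these data known. Named from the other pathway genes were those past an adjusted p of 0.05, up to 15 by smallest p, and those at 0 in all sums, of which 1 is not reported here. Gene positions and exon lengths are from GENCODE M21. The series text states 2 preparations, so equal numbers mark a shared preparation. Same-numbered sums deviated from their group means with a correlation of 0.04 to 0.15 over genes.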

Additional observations from a re-analysis of the deposited data

Results flagged for a closer look

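The 220 Cd31+ and 20 Cd31- wells under the depth filter, with median counts of 4780 and 8508.5, enter no comparison above. In these Cd31+ wells Edn1 was at 1247 CPM, Ece1 at 1286 CPM and Ramp2 at 1118 CPM. Calcrl was at 719 CPM, Ace at 521 CPM and Ptgs1 at 422 CPM there. Each was above both the Cd31- floor of 19.0 CPM and its own Cd31- level, which flagged it as a signal in unused data. The share of all genes that meet this rule was not counted. In the Cd31- wells under the filter Edn1, Ptgs1 and Ramp2 had no count, against a floor of 19.0 CPM. Ptgis was at 402 CPM in the Cd31+ and at 1014 CPM in the Cd31- wells, and Ptgs2 at 17.2 CPM (23 counts) and 247 CPM (39 counts). No test was made, since these wells were not summed by preparation.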

How the results depend on the processing

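Between gates, where 9 of 10 members were called with Ednrb counted, the number was 8 in wells with 100000 or more counts and in thinned wells, 9 under every other alternative that kept all sums, and 6 to 9 with 1 sum left out. These numbers count Ednrb wherever it passed, although its fitted test is not used. Of the 9 members with counts in both gates, 6 were higher and 2 lower in the main fit. The replicate block of preparation and that of genotype and preparation each gave 9, and no member's call between gates or genotypes changed with a block. Among the other pathway genes, 19 were called, with 15 and 13 under the blocks and 9 to 17 with 1 sum left out. The 19 include Nos1, Ramp3 and Ptges, which had no count in 1 gate. Of the 27 with counts in both gates, 3 were higher and 13 lower in the main fit. Over all genes, 2423 were called between gates, against 1355 without KO preparation 2 of the Cd31+ gate, and also 1399, 1496 and 1435 without the other Cd31+ sums. DESeq2 gave 3101.

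With 1 sum left out, called members numbered 0 to 1 in the Cd31+ and 0 to 3 in the Cd31- genotype comparison. The interaction had 1 without the filter and 1 in DESeq2. Other pathway genes called numbered 0 to 2 with 1 sum left out in each of these, 1 in the Cd31- sums without the filter, and 3 without the filter and 2 in DESeq2 in the interaction. Over all genes the Cd31+ comparison went from 0 to 104 without the filter, 8 in thinned wells and 5 to 311 with 1 sum left out. The Cd31- comparison went to 24 and to 0 to 79, and the interaction to 163 and to 0 to 42.

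Signs changed as follows on the log2 scale, and in no such case was the value past the threshold. Ptgs2 between gates was 0.18 in wells with 100000 or more counts and 0.17 against smooth muscle-like wells. For KO against WT in the Cd31+ sums, thinning gave Ednra -0.27, Ptgs2 -0.20 and Calcrl 0.16, and the replicate block gave Ptgs2 -0.18. In the Cd31- sums the replicate block gave Ednra 0.14, thinning gave Ptgs2 -0.071, and smooth muscle-like wells gave Ece1 0.16 and Ptgs2 -0.36. In the interaction those wells gave Ptgs1 -0.42 and Ece1 -0.074. With 1 sum left out, Cd31+ values ran from -0.76 to 0.10 for Edn1, -0.18 to 8.42 for Ednra, -1.39 to 4.46 for Ednrb, -0.042 to 0.18 for Ece1, -1.80 to 1.48 for Ptgs2 and -0.17 to 0.13 for Calcrl. Cd31- values ran from -2.01 to 3.98 for Ednra, -1.89 to 0.20 for Ace, -0.053 to 1.01 for Ptgis and -2.95 to 0.68 for Ramp2. The causes were not tested.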
